A study of Drosophila melanogaster with 2 samples.

Results

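The genes described are those of the fly dosage compensation machinery: the noncoding RNAs *lncRNA:roX1* (*roX1*, FBgn0019661) and *lncRNA:roX2* (*roX2*, FBgn0019660), and the protein genes *msl-1* (FBgn0005617), *msl-2* (FBgn0005616), *msl-3* (FBgn0002775), *mle* (FBgn0002774) and *mof* (FBgn0014340). They were chosen by name, and all 7 are among the 15423 genes listed in the deposited tables. *roX1*, *roX2* and *mof* lie on the X chromosome, *msl-1* and *msl-2* on chromosome arm 2L, *mle* on 2R and *msl-3* on 3L.

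In flies, males carry a single X chromosome and raise its transcription to match the females, which have a pair. The male-specific lethal (MSL) complex does this: MSL-1 is the scaffold, MSL-2 and MSL-3 bind it, MLE is an RNA helicase that remodels the roX RNAs, and MOF acetylates histone H4 over the bodies of X-linked genes. The roX RNAs are transcribed from the X and built into the complex, and their stability in males depends on it. Females do not form the complex because the Sex-lethal protein blocks splicing and translation of the *msl-2* transcript, so *msl-2* is controlled after transcription.

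The study profiled nuclei by snRNA-seq from dissected nephrocytes, the filtration cells of the fly, of adults aged 5 to 7 d on a w1118 background, in which Dot-Gal4 drives UAS-GFP.nls and so marks nephrocyte nuclei with GFP. The sample labels give 1 female and 1 male sample, each a pool of flies. The 2 deposited count tables carry the words female and male in their names, but no sample record or column ties a table to a sample, so they are called the female-named and the male-named matrix here and no sex is assigned to a nucleus. With 1 library on each side there is no replicate check: values are given with 95% intervals that cover counting error only, and no test was made between the matrices.

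The female-named matrix held 7890 nuclei and 19107558 unique molecular identifiers (UMIs, counts of single transcripts), the male-named 5978 nuclei and 18130609 UMIs, with medians of 1315 and 1481 UMIs per nucleus and no nucleus under 500. They shared 14 barcodes. Y-linked transcripts took 154 (149 to 160) of every 1000000 UMIs in the female-named and 410 (400 to 419) in the male-named matrix. Nuclei were clustered without the genes described here, and 21 of 51 clusters were named from marker genes. Only 96 of the 13867 clustered nuclei were nephrocyte-like, with 8 of 10 nephrocyte markers raised and *sns* and *Cubn* among the leading genes. The named clusters covered many other tissues, and 9 named classes had at least 30 nuclei in each matrix. In addition, 635 nuclei that resembled male accessory gland and 84 that resembled spermatocytes were in the male-named matrix alone. The trachea-like class was cluster c45 alone, named on 3 of 7 markers, the fewest allowed. No gene of the trachea list was among its 10 leading genes, so this name is weak.

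The roX RNAs were far higher in the male-named matrix, while the transcripts of the 5 protein subunits were at nearly the same level in both. *roX1* gave 12892 UMIs in the female-named and 323707 in the male-named matrix, or 675 (663 to 686) and 17854 (17793 to 17916) CPM (UMIs per 1000000 UMIs). This is a ratio of 26.5 (26.0 to 26.9). In the male-named matrix *roX1* had more UMIs than any other gene, 1.79% of all UMIs, whereas in the female-named matrix it ranked 317 (ranks are by UMIs, not per length). *roX2* gave 555 and 9873 UMIs, or 29.0 (26.7 to 31.6) and 545 (534 to 555) CPM, a ratio of 18.7 (17.2 to 20.5).

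These were the 2 of 7 genes with a ratio of at least 2. Among the 9083 genes with at least 20 UMIs in each matrix, 433 were at least 2-fold higher in the male-named matrix, a background of 4.77%, and *roX1* and *roX2* ranked 7 and 9 by ratio. The median ratio over all of these genes was 0.948. The plot of summed levels shows the separation of the roX RNAs beside the overlapping intervals of the protein genes.

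**Figure D1:**
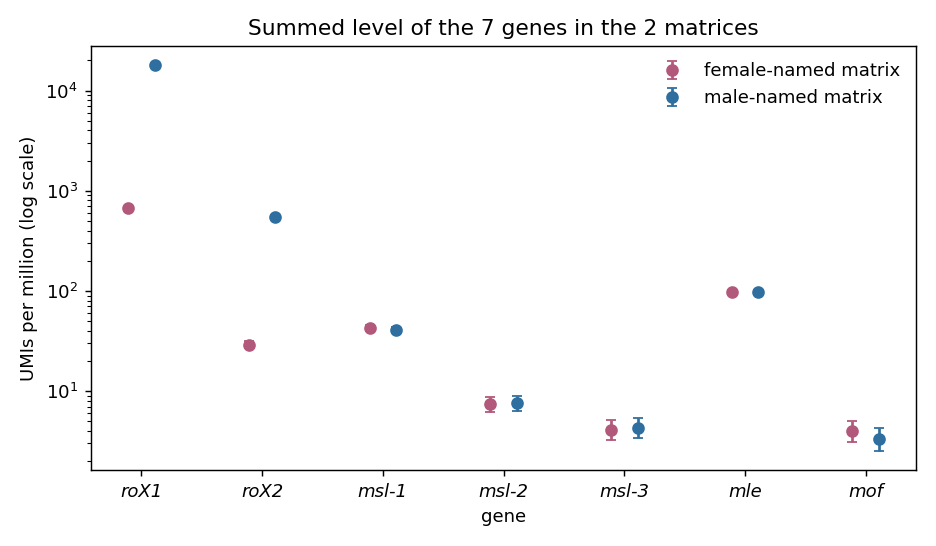
CPM (log axis) of the 7 genes summed over all nuclei of the female-named and the male-named matrix. Points are the summed levels and bars 95% exact Poisson intervals. *roX1* (675 and 17854) and *roX2* (29.0 and 545) lie apart between the matrices, and the intervals of the other 5 genes overlap.

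*mle*, the helicase gene, was the most abundant of the protein genes by UMIs, with 1882 and 1768 UMIs in the female-named and male-named matrix, a ratio of 0.990 (0.927 to 1.06). *msl-1*, the scaffold gene, gave 813 and 737 UMIs, a ratio of 0.955 (0.864 to 1.06). *msl-2*, whose protein is the male-limited subunit, gave 141 and 137 UMIs, or 7.38 (6.21 to 8.70) and 7.56 (6.34 to 8.93) CPM. Its ratio was 1.02, and the counting error left room for values from 0.803 to 1.30. *msl-3*, the chromodomain subunit gene, gave 78 UMIs in each matrix, a ratio of 1.05 (0.760 to 1.46). *mof*, the acetyltransferase gene, gave 76 and 60 UMIs, a ratio of 0.832 (0.583 to 1.18). Each of these 5 intervals included 1, and the widest were those of the genes with the fewest UMIs.

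Overlapping genes may bear on some of these counts, since the strand setting of the counting is not given in the sources used here. This was not tested. *roX1* overlaps *ec* on the opposite strand. *ec* was counted 2289 times in the female-named and 1721 times in the male-named matrix, beside 12892 and 323707 UMIs of *roX1*. *msl-3* overlaps *form3* on the opposite strand, which had 1376 and 996 UMIs, many more than *msl-3* itself. *msl-2* overlaps *mir-4971* and another noncoding entry on the same strand, and neither was among the genes counted. *roX2*, *msl-1*, *mle* and *mof* overlap no other gene in the annotation.

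At the level of single nuclei, *roX1* was nearly everywhere in the male-named matrix. To compare nuclei of unequal depth, 500 UMIs were drawn from each. A *roX1* UMI was then found in 98.2% (97.9 to 98.6) of male-named and 13.2% (12.4 to 13.9) of female-named nuclei. Without thinning the shares were 99.2% and 22.9%. A *roX2* UMI was found in 23.5% (22.4 to 24.6) and 1.33% (1.09 to 1.61) of thinned nuclei, or 55.1% and 4.49% without thinning.

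The protein genes were detected sparsely at 500 UMIs: *mle* in 5.25% of female-named and 4.55% of male-named nuclei, *msl-1* in 2.14% and 1.97%, and *msl-2*, *msl-3* and *mof* in fewer than 0.6% in either matrix. For these genes the depth of a nucleus does not allow a statement about which nuclei lack the transcript.

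Free RNA from lysed cells can add UMIs to nuclei that do not make a transcript. Transcripts of the male accessory gland were therefore counted inside and outside the accessory gland-like nuclei. Summed over 10 accessory gland markers fixed with the marker lists, 63.5% (59.6 to 67.2) of the 635 accessory gland-like nuclei had a UMI among 500, beside 12.9% (12.0 to 13.8) of the other 5343 male-named nuclei, whose median depths were 2026 and 1437 UMIs. The same markers summed to 1.05 CPM in the female-named matrix. The *roX1* UMIs per accessory gland marker UMI ranged from 31.4 (27.9 to 35.5) in spermatocyte-like to 115 (102 to 128) in fat body-like nuclei, and were 10.0 (9.74 to 10.3) in the accessory gland-like nuclei. The accessory gland-like class was named from these same markers, so its high share and low ratio follow from the naming. The other nuclei held the unnamed cluster c48, with the marker *Dup99B* among its leading genes. The part of free RNA in the *roX1* level was not tested.

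Nuclei of the female-named matrix were not uniform in *roX1*. Cluster c6, with 439 female-named nuclei and 1 male-named, carried *roX1* at 5663 (5517 to 5812) CPM, beside 399 (389 to 408) in all other female-named nuclei, a ratio of 14.2 (13.7 to 14.7). It held 5.56% of the female-named nuclei and 5.24% of their UMIs, but 44.0% of their *roX1* and 39.8% of their *roX2* UMIs. A *roX1* UMI was present in 437 of the 439 nuclei. The level was broadly spread, from 1.51 per 1000 UMIs at the fifth percentile through a median of 7.51 to 20.1 at the 95th.

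*roX2* was also higher in c6, at 221 (192 to 252) against 18.4 (16.5 to 20.5) CPM, a ratio of 12.0 (10.0 to 14.2). The protein genes did not share this difference beyond counting error. *msl-1* was at 54.9 (41.3 to 71.4) against 41.9 (38.9 to 45.0) CPM, a ratio of 1.31 (0.978 to 1.72), and *mle* had a ratio of 0.950 (0.764 to 1.17). *msl-2* gave 8, *msl-3* gave 2 and *mof* gave 5 UMIs in c6, and the interval of each ratio included 1.

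Cluster c6 was left unnamed. Its raised markers were 4 of 9 heart markers, enough for a name, but no heart marker was among its leading genes, and the heart list summed to 1121 CPM in c6 beside 1082 in the other female-named nuclei. The leading genes included *grn* (a GATA factor), *stg* (the Cdc25 phosphatase that starts mitosis in embryonic cells), *rib* and *scrt* (transcription factors of embryonic tubes and neurons), *ft* (an atypical cadherin) and *Tom* (a Bearded-family gene of Notch signaling). Of the marker lists, male accessory gland had 9 of 10 genes at 0 in c6 and follicle cell 5 of 6. Spermatocyte markers, 5 of 13 at 0 in c6, summed to 746 CPM in c6 and 496 in the other female-named nuclei, and female germline markers, 3 of 7 at 0, to 167 and 140. Fat body markers summed to 5701 CPM in c6 and 8789 in the other female-named nuclei, nephrocyte markers to 3826 and 3293, trachea markers to 1558 and 871, and neuron markers to 689 and 321. The median depth was 1309 UMIs. The part of depth, free RNA, doublets or any of these cell types in the *roX1* level of c6 was not tested.

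Without c6 the male-named to female-named ratio was 44.8 (43.8 to 45.9) for *roX1* and 29.5 (26.5 to 33.0) for *roX2*. Without all 16 clusters that lay almost wholly in 1 matrix it was 63.2 (61.0 to 65.6) and 36.9 (31.6 to 43.5). Both exclusions were chosen after the data had been seen. The same exclusion of 16 clusters gave *mle* a ratio of 1.10 (1.01 to 1.20). It took out the fat body-like cluster c0, with 987 female-named nuclei, but kept the fat body-like c3, with 750 male-named nuclei. In these nuclei *mle* was at 188 and 149 CPM, the second highest cluster level of each matrix. The part of this uneven exclusion in the ratios was not tested.

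**Figure D2:**
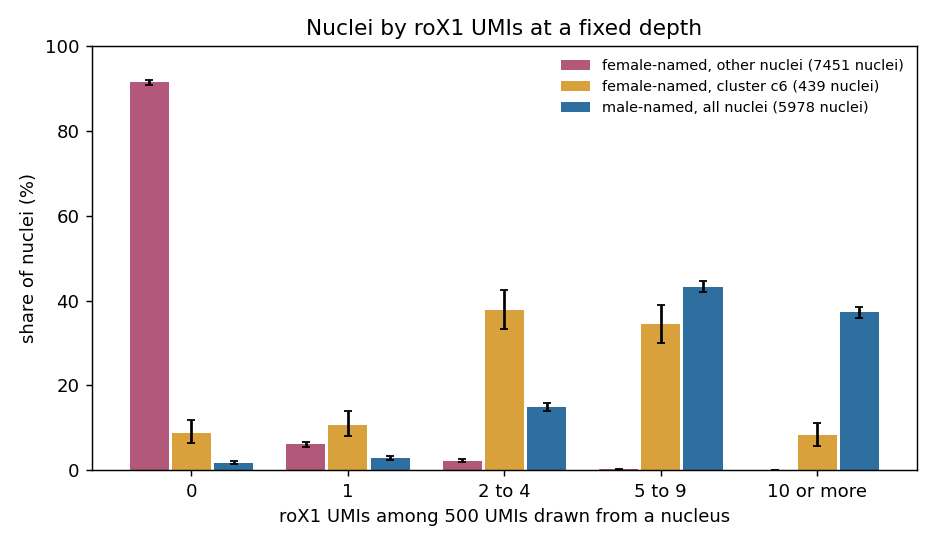
Share of nuclei (%) by the number of *roX1* UMIs among 500 UMIs drawn from each nucleus, for 7451 female-named nuclei outside c6, 439 female-named nuclei of c6 and 5978 male-named nuclei. Bars are shares and whiskers 95% exact binomial intervals. Outside c6, 91.4% of female-named nuclei had none, whereas c6 peaked at 2 to 4 and the male-named nuclei at 5 to 9.

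At the fixed depth, 91.4% (90.8 to 92.0) of the female-named nuclei outside c6 had no *roX1* UMI, 8.88% (6.39 to 11.9) of c6 had none and 1.76% (1.44 to 2.12) of the male-named nuclei had none. At the upper end, 10 or more *roX1* UMIs of 500 were found in 37.2% of male-named nuclei, 8.20% of c6 nuclei and 0.0403% (3 nuclei) of the other female-named nuclei. Within the female-named matrix, nuclei with 2 to 4 *roX1* UMIs had more *roX2* and more Y-linked RNA than nuclei with none. Outside c6, *roX2* was at 8.28 (6.91 to 9.84) CPM in nuclei without a *roX1* UMI and at 145 (119 to 175) in those with 2 to 4. In c6 the corresponding levels were 94.8 (57.1 to 148) and 223 (179 to 275). In the same bins Y-linked transcripts were at 134 (129 to 140) and 307 (269 to 349) CPM outside c6, and at 135 (88.8 to 196) and 322 (268 to 383) in c6, beside 410 in the whole male-named matrix. With 5 to 9 *roX1* UMIs the Y-linked level was 387 (216 to 638) outside c6 and 240 (172 to 326) in c6. The latter interval overlapped that of c6 nuclei with none. In c6 nuclei with 10 or more it was 517 (311 to 807). Male-named nuclei with 0, 1, 2 to 4, 5 to 9 and 10 or more *roX1* UMIs stood at 5719, 738, 680, 354 and 299. The part in these levels of RNA or nuclei from the other pool was not tested.

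Among the 39 clusters with at least 30 female-named nuclei, c38 came next after c6, with 1645 (1387 to 1936) CPM of *roX1* from 144 UMIs. Only 22.4% of its thinned nuclei had a *roX1* UMI and its median nucleus had none, so the level came from a minority of its 58 nuclei. In c12, the next cluster, 322 nuclei summed to 867 (837 to 897) CPM and 31.1% of thinned nuclei had a UMI. This cluster was deep, with a median of 9169 UMIs per nucleus. It held 3211 of the 7217 *roX1* and 128 of the 334 *roX2* UMIs of the female-named nuclei outside c6. Its leading genes included *dhd* (an egg thioredoxin), the yolk protein genes *Yp1*, *Yp2* and *Yp3*, and *Tom*, *rib* and *scrt*, which also led c6. The median over the 39 clusters was 335 and the lowest was 67.6 in c40, so *roX1* was detected in every cluster.

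Among the 39 clusters with at least 30 male-named nuclei, *roX1* spanned a narrower range, from 5289 (4995 to 5595) CPM in c28 to 21755 in c3, a fat body-like cluster, with a median of 17574. The low end belonged to c28, accessory gland-like nuclei led by the seminal peptide genes *Mst57Da* and *Mst57Db*. The other accessory gland-like clusters, c22 and c30, reached 16871 and 17420. In c28 *roX2* was also the lowest of the clusters, at 197 (144 to 264) from 45 UMIs. The summed *msl-1* and *mle* levels, 8.76 and 39.4 CPM, were the lowest too. They rest on still fewer UMIs and are given without intervals, so no lower level of these genes in c28 is claimed. The median depth of c28 was 819.5 UMIs, below the 1481 of the whole matrix, and that part was not tested.

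The muscle-like cluster c11 was low in *roX1* as well, with 9619 (9175 to 10080) CPM beside 17236 and 18049 in the muscle-like clusters c25 and c16. Its *roX2* level was 734 (615 to 869), with an interval that overlapped that of c25 at 906 (776 to 1052), and above the median cluster at 537. Hence *roX1* and *roX2* did not order the clusters alike. Between the matrices, the level of c6 in the female-named matrix and that of c28 in the male-named one had overlapping intervals, for *roX1* (5663 and 5289) as for *roX2* (221 and 197).

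**Figure D3:**
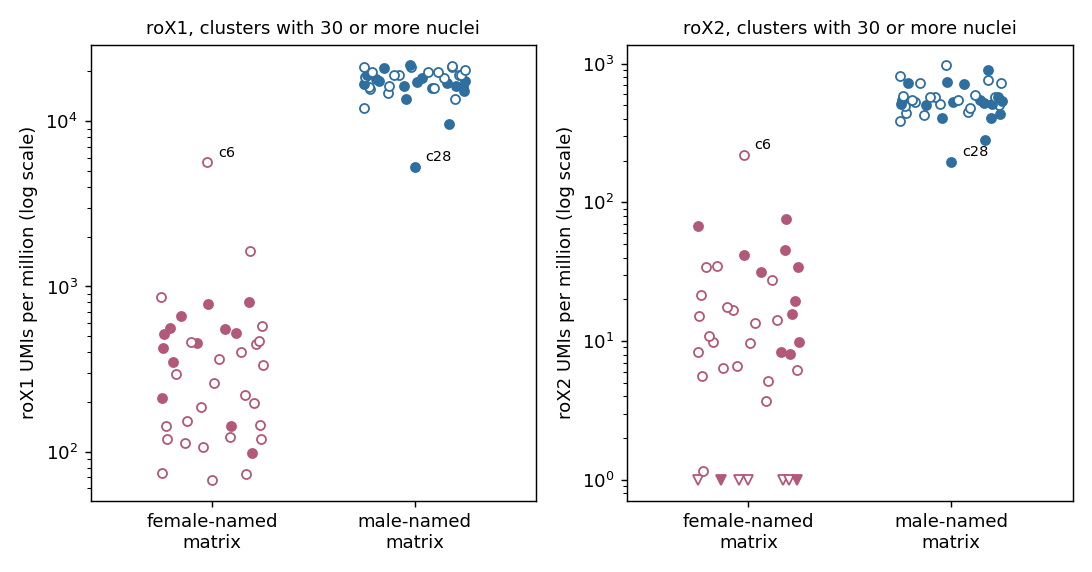
CPM (log axis) of *roX1* (left) and *roX2* (right) in each cluster with 30 or more nuclei in the matrix given below, 39 in each. Filled points are clusters of a named class, open points unnamed clusters, and triangles at the bottom clusters with 0 *roX2* UMIs, drawn at 1. The cluster c6 stands above the other female-named clusters (5663 for *roX1*) and c28 below the male-named ones (5289).

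In the 29 clusters with at least 30 nuclei in each matrix, *roX1* was higher in the male-named nuclei in all 29, with ratios from 9.51 in c38 to 268 in c23 and a median of 52.2. *roX2* was likewise higher in all 29, and 6 of these clusters had no female-named *roX2* UMI.

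The 9 named classes gave the same direction. In the male-named matrix *roX1* was highest in fat body-like nuclei, at 21459 (21237 to 21683) CPM, followed by Malpighian tubule principal cell-like nuclei at 19104 (18637 to 19579). Oenocyte-like (17742) and midgut enterocyte-like (17574) nuclei followed, with overlapping intervals. Neuron-like (16788), muscle-like (16355), hemocyte-like (16027) and trachea-like (15786) nuclei were neighbors whose intervals overlapped from each to the next. Nephrocyte-like nuclei were the lowest, at 13689 (13137 to 14259).

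In the female-named matrix the order was another. Malpighian tubule principal cell-like nuclei had the highest *roX1* level, 786 (682 to 901) CPM, and fat body-like nuclei the lowest, 101 (85.1 to 120). Nephrocyte-like (560), hemocyte-like (522), trachea-like (515) and neuron-like (510) nuclei had overlapping intervals, as had muscle-like (379), midgut enterocyte-like (349) and oenocyte-like (337) nuclei. The intervals of nephrocyte-like (381 to 795) and trachea-like (347 to 735) nuclei also overlapped those of Malpighian tubule principal cell-like and muscle-like nuclei. The order above the fat body-like nuclei was thus only partly resolved. The fat body-like nuclei thus had the lowest level in one matrix and the highest in the other, a ratio of 212 (179 to 252), whereas the ratios of the other classes lay between 24.3 (21.2 to 28.1) in Malpighian tubule principal cell-like and 52.6 (47.3 to 58.5) in oenocyte-like nuclei. In the fat body-like class, c0 held most female-named nuclei and c3 most male-named ones, so different clusters stand on the sides of this ratio. The same holds in the oenocyte-like class, where c20 held 243 of the 379 female-named nuclei and 11 male-named ones, and c31 held 170 of the 314 male-named nuclei and 14 female-named ones.

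*roX2* in the male-named matrix ranged from 393 (359 to 430) CPM in oenocyte-like to 721 (578 to 888) in trachea-like nuclei. Midgut enterocyte-like (709) and muscle-like (643) nuclei were next to trachea-like, with overlapping intervals. In the female-named matrix nephrocyte-like and trachea-like nuclei had 0 *roX2* UMIs, which allows up to 54.2 and 51.5 CPM, and hemocyte-like nuclei were at 41.8 (24.4 to 67.0). The intervals of hemocyte-like, oenocyte-like (37.9), Malpighian tubule principal cell-like (34.3) and neuron-like (33.5) nuclei overlapped, and both limits lay above these levels, so no order of the female-named classes was resolved at the upper end. In nephrocyte-like nuclei, the target of the dissection, 68 *roX2* UMIs in the male-named matrix gave 403 (313 to 511) CPM, and the lower 95% limit of the ratio to the female-named matrix was 5.88.

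The number of *roX1* UMIs per *roX2* UMI was 32.8 (32.1 to 33.5) in the male-named and 23.2 (21.3 to 25.3) in the female-named matrix, and 25.7 (22.4 to 29.5) in c6. These are ratios of UMIs and not of levels per length. Among male-named classes it ran from 21.9 (17.7 to 27.4) in trachea-like to 45.1 (41.2 to 49.4) in oenocyte-like nuclei.

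**Figure D4:**
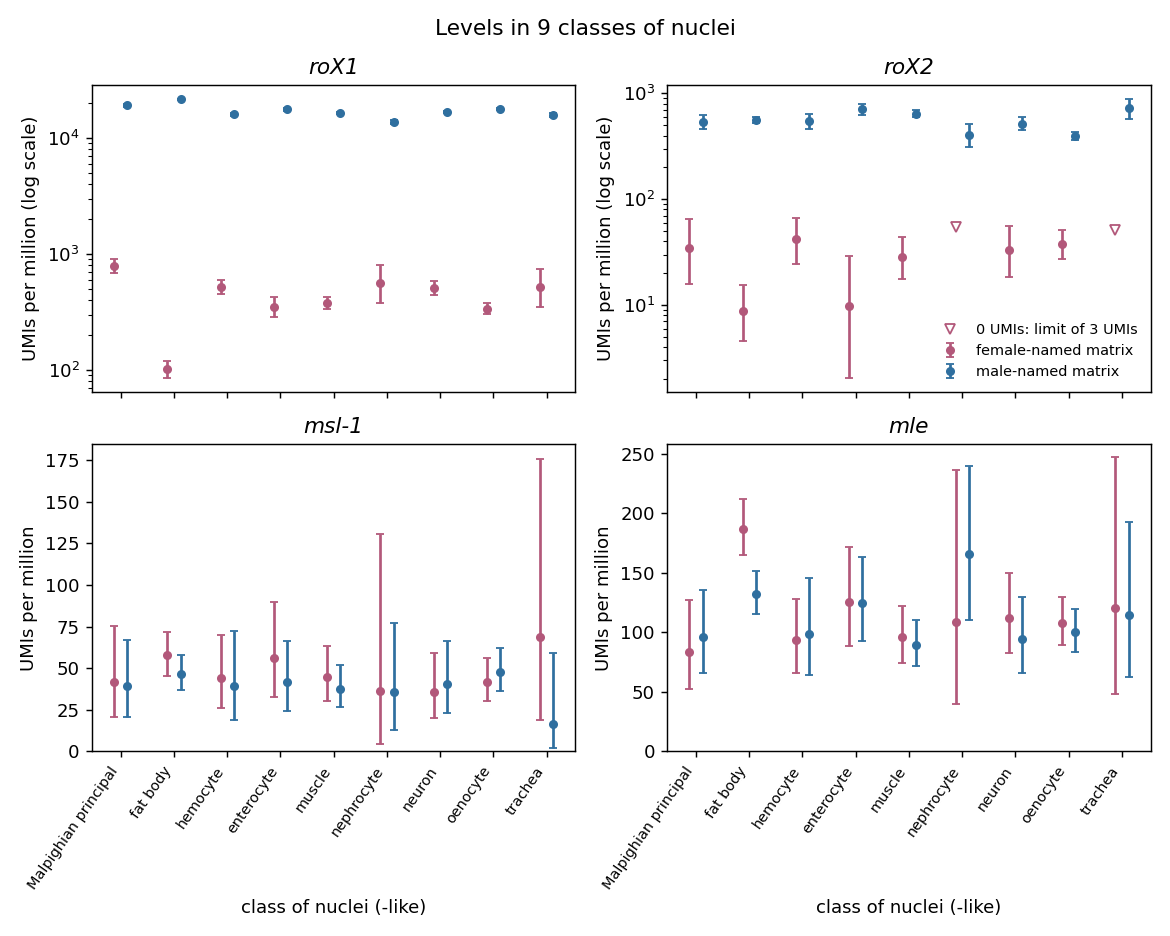
CPM of *roX1*, *roX2* (log axes), *msl-1* and *mle* (linear axes from 0) in 9 classes of nuclei, in the female-named and the male-named matrix. Points are summed levels, bars 95% exact Poisson intervals, and open triangles the limit of 3 UMIs where none was counted. *roX1* in fat body-like nuclei runs from 101 to 21459, and *mle* there is at 187 and 133.

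Differences between classes were tested with edgeR's quasi-likelihood test on the 18 sums of a class in a matrix, each class against the mean of the others. The matrix was a block, and Benjamini-Hochberg adjustment ran over 5409 genes. *roX1*, *roX2*, *msl-1* and *mle* passed the filter on low counts, and *msl-2*, *msl-3* and *mof* did not. Of the 36 tests of these 4 genes, 2 passed an adjusted p of 0.05, or 5.56%, beside a background of 10.6% over all genes and classes. Both calls were in fat body-like nuclei, where 22.6% of all genes tested were called higher.

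*mle* was higher in fat body-like nuclei, at 187 (165 to 212) CPM in the female-named and 133 (116 to 151) in the male-named matrix, beside 83.9 to 125 and 89.6 to 166 in the other classes. The log2 fold change was 0.79 (SE 0.17, edgeR adjusted p = 0.00114), and under the 5 alternatives the adjusted p stayed between 0.000342 and 0.00460. The fat body-like *mle* level differed between the matrices, with a ratio of 0.708 (0.589 to 0.852). In the male-named matrix nephrocyte-like nuclei, with 28 UMIs, stood above fat body at 166 (110 to 240), with overlapping intervals.

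*msl-1* was also called higher in fat body-like nuclei, at 57.7 (45.6 to 72.0) and 46.4 (36.6 to 58.0) CPM, beside 35.9 to 68.6 and 16.4 to 48.0 in the other classes. It was the top class in neither matrix: trachea-like nuclei stood at 68.6 (18.7 to 176) in the female-named and oenocyte-like nuclei at 48.0 (36.5 to 61.9) in the male-named one, with overlapping intervals. Its log2 fold change was 0.59 (SE 0.22, edgeR adjusted p = 0.0392). The call was lost with DESeq2 (adjusted p = 0.137), without the block (0.0955), without the filter on low counts (0.0569) and with X-linked genes left out of the clustering (0.102).

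No class differed from the others in *roX1* or *roX2* by this test. Their log2 fold changes ran from -0.22 to 0.57 for *roX1* and from -0.62 to 0.23 for *roX2*, with SEs of 0.34 to 0.40 and 0.27 to 0.47 and no edgeR adjusted p below 0.465. Under the alternatives 3 calls appeared. *roX1* in Malpighian tubule principal cell-like nuclei passed without the filter on low counts (log2 fold change 0.57, adjusted p = 0.0157). With X-linked genes left out of the clustering *roX1* (2.08, adjusted p = 0.0302) and *roX2* (1.67, adjusted p = 0.0331) passed in trachea-like nuclei, and 338 of the 422 female-named nuclei of that class were then from c6. The fit takes the step between the matrices as equal in every class, whereas the *roX1* ratio ran from 24.3 to 212, so its error holds that spread.

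Among the spermatocyte-like nuclei of the male-named matrix, *roX1* was lower in those with much Y-linked RNA. Y-linked genes such as *kl-3* and *WDY* are transcribed in primary spermatocytes, and the MSL complex is not known to act in the male germ line. The spermatocyte marker list held Y-linked genes, *kl-3* among them, so the class is split here by genes that helped to name it. Whether its nuclei with little Y-linked RNA are spermatocytes was not tested. Of the 84 spermatocyte-like nuclei, 43 had fewer than 1 Y-linked UMI per 1000, and their *roX1* level was 19087 (18456 to 19734) CPM with no nucleus under 3.28 per 1000. In the 26 nuclei with 1 to 10 it was 14292 (13887 to 14707). In the 15 nuclei with 10 or more it was 10094 (9406 to 10820), and 7 of these had fewer than 2 *roX1* UMIs per 1000.

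The nucleus with the most Y-linked RNA, 129 per 1000, had 4 *roX1* UMIs and no *roX2* UMI among 2272. Of the next 4 nuclei, 3 had 2 *roX1* UMIs each, among 2340, 1320 and 3519, and the other had 65 among 6935. High and low *roX1* nuclei therefore lay side by side at high Y-linked levels. The median depths were 1311, 11305 and 3845 UMIs in the 3 bins, and the part of free RNA was not tested. *roX2* stood at 497 (400 to 611), 370 (308 to 442) and 367 (246 to 528) CPM in the same bins, with overlapping intervals at the ends. The order of *roX1* was not limited to this class: in the other male-named nuclei it was 18027 (17963 to 18092), 16314 (16036 to 16596) and 12993 (11476 to 14656) CPM in 5554, 333 and 7 nuclei of the same bins.

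Of all 5978 male-named nuclei, 69 (1.15%, 0.899 to 1.46) had fewer than 1 *roX1* UMI per 1000. They included 36 of the 200 nuclei of c28 (18%), 7 of the 84 spermatocyte-like nuclei (8.33%) and 6 of the 162 nuclei of c11 (3.70%, 1.37 to 7.89). No other cluster had more than 4, but some small clusters had shares like that of c11. These were 3 of 43 in c48 (6.98%, 1.46 to 19.1) and 3 of 61 in c38 (4.92%, 1.03 to 13.7). Nephrocyte-like nuclei had 2 of 57 (3.51%). *msl-3* gave 8 UMIs in the spermatocyte-like nuclei, 13.6 (5.86 to 26.7) CPM, beside 4.30 (3.40 to 5.37) in the whole matrix. The intervals of the other protein genes in this class overlapped those of the whole matrix. In trachea-like nuclei *msl-3* stood at 16.4 (1.98 to 59.2) from 2 UMIs. It overlaps *form3*, which had many more UMIs, and the part of *form3* in these values was not tested.

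The X chromosome is the target of the complex, so X-linked and autosomal genes were compared between the matrices without the 7 genes. Over genes with at least 20 UMIs in each matrix, the median log2 ratio of male-named to female-named level was -0.20 for 1522 X-linked and -0.05 for 7493 autosomal genes. The difference of -0.14 corresponds to 0.906-fold. It was negative in each of the 9 classes, from -0.06 in nephrocyte-like to -0.23 in trachea-like nuclei. These values come from 1 library on each side, and the quartiles of X-linked and autosomal genes overlapped in every class.

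Of the X-linked and autosomal UMIs without the 7 genes, X-linked genes took 18.2% in the female-named and 15.7% in the male-named matrix. The X-linked shares below are of the same kind. They sum UMIs, so abundant genes weigh more than in the medians over genes. The male-named share was 0.865 of the female-named one over all nuclei. In fat body-like nuclei it was 0.790, where the medians gave 0.932-fold. Trachea-like nuclei had the other order, 0.890 and 0.851, and in nephrocyte-like nuclei both were 0.957. The 89 genes of chromosome 4, which has its own regulator, had a median log2 ratio of 0.17, above that of the X and of every major autosome arm. Inside the female-named matrix, nuclei with a *roX1* UMI after thinning had an X-linked share of 17.9% and those without had 18.2%. Within classes the share was lower with a *roX1* UMI in 5 of the 7 classes with at least 10 such nuclei, and it was higher in c6, at 17.4% (17.3 to 17.5) against 17.1% (16.9 to 17.2). In the 36 c6 nuclei with 10 or more *roX1* UMIs, however, it was 15.5% (15.2 to 15.9). The c6 nuclei with and without a UMI had median depths of 1207.5 and 4203 UMIs.

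**Figure D5:**
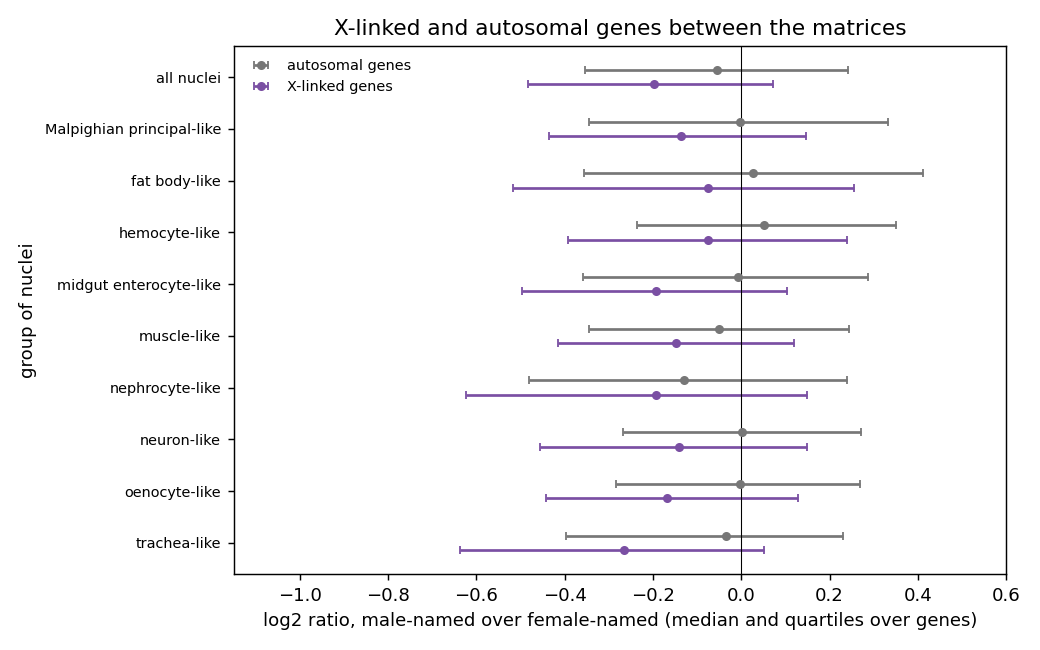
Median log2 ratio of the male-named to the female-named level for X-linked and autosomal genes, over all nuclei and in 9 classes. Points are medians over genes and bars run from the lower to the upper quartile. The X-linked median lies below the autosomal one in each group, by 0.06 to 0.23, and the quartile ranges overlap.

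The 22 genes listed as partners were all in the tables, and none had a ratio above 1.5. Their median ratio was 0.960, beside 0.948 over all genes. Apart from *sle*, those described here were chosen by role after their values had been seen. Among the chromatin partners, *Clamp*, the zinc finger factor that brings the complex to the X, gave 700 and 706 UMIs, a ratio of 1.06 (0.956 to 1.18). *JIL-1*, the histone H3 kinase enriched on the male X, had a ratio of 1.01 (0.963 to 1.05). The NSL complex, which also contains MOF, had a median ratio of 0.929 over its 6 genes, and its scaffold gene *nsl1* had 1.03 (0.991 to 1.07).

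*Sxl*, the switch gene that blocks *msl-2*, gave 14773 and 14524 UMIs, a ratio of 1.04 (1.01 to 1.06). Its sex-specific form differs by splicing, which counts per gene do not resolve. *Unr*, its partner in the translational block, had 1.13 (1.10 to 1.15) and *fl(2)d*, a splicing cofactor of *Sxl*, 1.20 (1.15 to 1.24). The only partner that differed by over 1.5-fold in either direction, with an interval excluding 1, was *sle*, lower in the male-named matrix, with 326 and 167 UMIs and a ratio of 0.540 (0.445 to 0.653). *sle* stands in the list of *msl-2* and sex pathway regulators, but it is known for a nucleolar protein of the developing brain. Just short of that threshold lay *pzg*, at 0.688 (0.598 to 0.792), and *wds*, a WD-repeat subunit of NSL, at 0.692 (0.596 to 0.803).

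Between classes, 19 of the 22 partners passed the filter, and 5 of their 171 tests passed (4 higher, 1 lower), again beside the background of 10.6%. All 5 belonged to *how* and *Trl*. *how*, an RNA-binding protein that acts on *msl-2* splicing and in muscle and tendon, was higher in trachea-like (log2 fold change 2.04, edgeR adjusted p = 4.11e-06) and muscle-like nuclei (1.36, adjusted p = 0.000136). It was lower in midgut enterocyte-like nuclei (-1.31, adjusted p = 0.00373). *Trl*, the GAGA factor, was called higher in fat body-like (1.34, adjusted p = 0.0117) and hemocyte-like nuclei (1.70, adjusted p = 0.0418). In trachea-like nuclei its log2 fold change was -7.05 (SE 1.98, edgeR adjusted p = 0.0538). That low level enters the mean against which the other classes were set, so both *Trl* calls rest in part on it. Of all genes tested, 3.64% were called higher in trachea-like, 7.17% in muscle-like and 3.31% in hemocyte-like nuclei, and 3.44% lower in midgut enterocyte-like nuclei. The trachea-like name rests on 3 of 7 markers.

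The genes whose levels across the 18 sums were most like those of *roX1*, by Pearson's r of log2 levels, were *CG43101* (r = 0.972), *Mst57Da* (0.969) and *Acp53C14a* (0.968). For *roX2* they were *CG43101* (0.957), *Acp36DE* (0.955) and *Acp62F* (0.950). Spearman's rho lay between 0.744 and 0.771 for the former genes and between 0.846 and 0.876 for the latter. Acp genes and *Mst57Da* encode seminal proteins of the accessory gland. The 18 sums share 2 libraries, and the likeness is the step between them: within the male-named matrix the 3 genes had r of -0.56, -0.16 and -0.16 with *roX1*, and those named for *roX2* had 0.32 to 0.42 with it. In male-named nuclei outside the accessory gland-like class *Mst57Da* stood at 143 (137 to 149) CPM, beside 869 (836 to 904) in that class and 0 in the female-named matrix. *roX1* and *roX2* were themselves correlated at r = 0.945 over all 18 sums and at 0.146 and 0.169 within the 9 sums of the female-named and male-named matrix.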

How the data were processed

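The authors made the deposited UMI counts with Cell Ranger and left them unnormalized, in 2 tables. For its version, genome build and gene annotation, nothing was given in the sources used here. The labels and the methods give different library kit versions and rearing temperatures. No deposited column was left unused (0). The genes and lists were chosen with earlier results of these data known.

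Symbols and chromosome arms came from reference tables, and 68 genes had no symbol. Nuclei with at least 200 genes were clustered with scanpy 1.11.5 (2000 variable genes, 30 principal components, 15 neighbors, Leiden resolution 2). The 7 genes, their partners and Y-linked genes, 73 genes in all, were left out. A class needed at least 3 markers raised at least 3-fold. Clusters that passed for heart, female germline and stellate cells were left unnamed by a judgment made after their leading genes had been seen. The leading genes of the stellate cluster, c10, held *SecCl* of the stellate list and *Amy-p* of the midgut enterocyte list. A cluster that passed for muscle (c14, 9 of 10 markers) and another for trachea (c9, 4 of 7) were left unnamed because their 10 leading genes held a marker of another list (*H15* of heart, *bond* of oenocytes) and none of their own. Doublets were not removed.

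Levels are CPM, UMIs per 1000000 UMIs of the group. Intervals are exact Poisson, Clopper-Pearson and, for ratios, conditional binomial intervals at 95%; a count of 0 allows 3 UMIs. Sums of classes were fitted with edgeR 4.0.16 (TMM, filterByExpr, matrix as block, since the sums of a matrix share 1 preparation) in R 4.3.3. Standard errors are the log2 fold change over the square root of F. The fit was tested on simulated data. DESeq2 1.42.0 was an alternative. Likeness used log2(CPM + 10). Partners were named individually by a ratio past 1.5 with an interval excluding 1, and otherwise chosen by role after the values were seen. No genome sequence was used here, so no sequence or coordinate is given.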

Additional observations from a re-analysis of the deposited data

How the results depend on the processing

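The *roX1* ratio of the male-named to the female-named matrix was 28.2 over nuclei with at least 1000 UMIs and 27.1 without the classes found in 1 matrix alone, and it stayed within the counting interval scaled to autosomal UMIs and without the 1% of nuclei with most UMIs. After the data had been seen, leaving out c6 gave 44.8 for *roX1* and 29.5 for *roX2*, and leaving out all clusters in 1 matrix alone gave 63.2, 36.9 and, for *mle*, 1.10. The latter exclusion took out the fat body-like cluster c0 but kept c3. The other ratios moved by less than their counting intervals. The number of class calls among the 7 genes was 2 with the matrix as a block, 1 without the replicate block, 1 with DESeq2, 2 without a filter or at Leiden resolution 1, and 3 with X-linked genes left out of the clustering.

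With X-linked genes left out of the clustering the *roX1* log2 fold change of trachea-like nuclei was 2.08 in place of -0.07, and that of *roX2* 1.67 in place of 0.23; 338 of the 422 female-named nuclei then called trachea-like belonged to c6. *roX1* in Malpighian tubule principal cell-like nuclei passed without the filter on low counts (log2 fold change 0.57, edgeR adjusted p = 0.0157). Counts of genes called differed by over 1.5 times without the block for Malpighian tubule principal cell-like (171 against 275), midgut enterocyte-like (366 against 621) and oenocyte-like nuclei (241 against 389), without the filter for neuron-like nuclei (747 against 457), and with X-linked genes left out for midgut enterocyte-like (285) and oenocyte-like nuclei (248). Of 28 shares of nuclei under other depths, 27 moved beyond their interval. With log2(CPM + 1), 1 of the 3 genes most like *roX1* and 0 of the 3 most like *roX2* were shared. The X-linked minus autosomal difference stayed between -0.12 and -0.14. Leaving out a replicate was not possible because each matrix is 1 library. *msl-2*, *msl-3* and *mof* rest on 60 to 141 UMIs per matrix, which sets the width of their intervals.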

Other observations

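In the female-named matrix outside c6, 3 nuclei had 10 or more *roX1* UMIs among 500. Their median depth was 588 UMIs. X-linked genes gave 40.3% (38.0 to 42.6) of their X-linked and autosomal UMIs, with the 7 genes described left out. They had no Y-linked UMI, which allows up to 1612 CPM. The X-linked share in the other female-named nuclei was between 17.7% and 18.2% in every lower *roX1* bin. These nuclei were chosen after their values had been seen, and no test was made.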
